A study of Oryza sativa with 17 samples.

Results

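4 genes of the core phenylpropanoid pathway were followed in the grains of 2 coloured rice varieties: the 4-coumarate ligase genes Os4CL3 (LOC4328485) and Os4CL2 (LOC4330407), and the cinnamate 4-hydroxylase genes LOC4329329 and LOC4329324, both annotated as CYP73A in the study. They were picked by gene ID and are 4 of 32657 genes in the expression table. All 4 lie on chromosome 2. Expression is given in FPKM, which scales fragments by the length of the transcript and by the library, so levels of different genes can be set side by side.

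The samples were grains of the black rice Nanheinuo (BR) at 10 days after flowering (DAF) and of the red rice Yuhongdao 5815 (RR) at 15 and 20 DAF. Control plants received deionized water on the leaves and Fe plants received ferrous sulfate, sprayed at the end of booting and again 7 days later. Nicotinamide and the surfactant Tween 80 were in every spray, control included. The labels say only "Fe" for the treated groups, without a dose. The study sprayed a lower and a higher dose. Its network methods name changed genes of the lower dose against control, but no label ties a dose to these libraries. Each group had 3 replicates, except the RR control at 15 DAF with replicates 2 and 3, since its replicate 1 is not analysed here. A biological replicate was a set of 6 pails of plants, and 17 libraries in 6 groups were used. BR and RR were sampled on different days, so variety and day cannot be told apart. The leaf was sprayed and the whole grain was sequenced, a mixture of seed coat layers, endosperm and embryo, in which fewer cells of a type and less RNA per cell cannot be told apart.

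Phenylalanine ammonia lyase (PAL) opens the phenylpropanoid pathway by turning phenylalanine into cinnamic acid. Cinnamate 4-hydroxylase, a cytochrome P450 of the CYP73A family bound to the endoplasmic reticulum, then adds a hydroxyl group to give p-coumaric acid. 4-coumarate ligases join p-coumaric and related acids to coenzyme A. The product p-coumaroyl-CoA is the branch point from which chalcone synthase leads to flavonoids, among them the anthocyanins of black grains and the proanthocyanidins of red grains, and from which HCT, CCR and CAD enzymes lead to lignin. In rice, Os4CL3 is known as a ligase for lignin formation and Os4CL2 has been linked to flavonoid formation.

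FPKM sums ranged from 547675 to 679747 over the libraries, with 20050 to 23671 genes above 0. The read depth is not known. The 50 highest genes took 22.2% to 78% of the FPKM sum. Endosperm markers (8 storage protein and starch genes) summed to 63585 to 76784 FPKM in BR control, 28533 to 37257 in RR control at 15 DAF and 2375 to 5734 in RR control at 20 DAF, with none at 0. Embryo and aleurone markers (6 genes, of which at most 1 was at 0 in a library) summed to 543 to 1633 FPKM in BR control. In RR at 15 DAF they summed to 4902 to 5107 FPKM in control and 4042 to 14271 under Fe. Over all RR libraries at 20 DAF they summed to 7942 to 13862 FPKM, within the range of the Fe group at 15 DAF. The Fe libraries of RR at 15 DAF were split, with replicate 1 near the controls and replicates 2 and 3 nearer to 20 DAF. Over the genes tested the log2 values of Fe replicate 1 correlated at 0.969 and 0.945 with the controls. They correlated at 0.845 and 0.877 with Fe replicates 2 and 3. With the RR libraries at 20 DAF, Fe replicates 2 and 3 correlated at 0.863 to 0.94. Fe replicate 1 correlated with them at 0.765 to 0.809, and the controls of 15 DAF at 0.75 to 0.832. Endosperm markers summed to 33274 FPKM in Fe replicate 1 and to 11697 and 12273 in Fe replicates 2 and 3.

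The ligase Os4CL2 had 5.58 to 19.6 FPKM in the BR libraries and 0 to 1.82 FPKM in the RR libraries. Os4CL3, by contrast, was present in all 17 libraries, from 1.54 to 42.9 FPKM. The CYP73A genes were low or moderate in BR and in RR at 15 DAF and close to 0 in RR at 20 DAF.

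**Figure D1:**
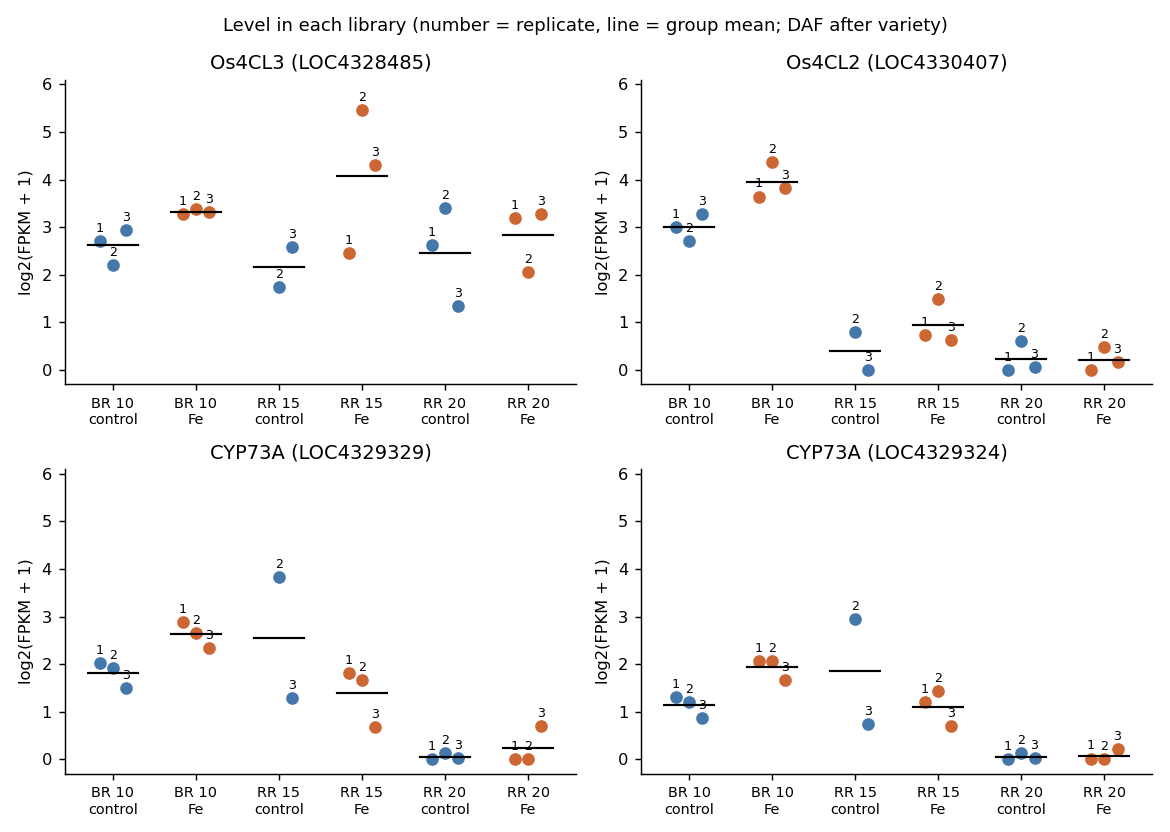
Level of each of the 4 genes in 17 libraries, as log2(FPKM + 1), with columns for variety, DAF and treatment, numbers for replicates and lines for group means. Os4CL2 is high in the 6 BR libraries and near 0 in the 11 RR libraries, and both CYP73A genes are near 0 in RR at 20 DAF.

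By group mean on the log2 scale, Os4CL3 stood in the order RR Fe at 15 DAF, BR Fe, RR Fe at 20 DAF, BR control, RR control at 20 DAF and RR control at 15 DAF. BR Fe and RR Fe at 20 DAF were the single pair of neighbours in that order whose libraries did not overlap. Os4CL2 ran from BR Fe through BR control, RR Fe at 15 DAF, RR control at 15 DAF and RR control at 20 DAF to RR Fe at 20 DAF. Its first 2 steps separated all libraries and the other 3 did not. Both CYP73A genes had the order BR Fe, RR control at 15 DAF, BR control, RR Fe at 15 DAF, RR Fe at 20 DAF and RR control at 20 DAF. For LOC4329329 no neighbours were apart, and for LOC4329324 only the step between the Fe groups of RR at 15 and 20 DAF was. Groups at the bottom of the orders of Os4CL2 and the CYP73A genes held libraries listed at 0 FPKM, and no group of Os4CL3 did.

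The first question was whether foliar Fe moved these genes in BR grains. All 4 had higher values in every Fe library than in any control library, and Os4CL2 alone passed the test. Os4CL2 had 7.00, 5.58 and 8.75 FPKM in control replicates 1 to 3 and 11.5, 19.6 and 13.2 FPKM in Fe replicates 1 to 3. The lowest Fe library lay above the highest control library, and Fe replicate 2 was the highest of all. The group means differed 2.08-fold. On the log2(FPKM + 1) scale, on which all changes below are given and which understates the change of low genes, Os4CL2 rose by 0.95 (SE 0.23, 95% interval 0.46 to 1.43), with a Benjamini-Hochberg adjusted p = 0.0418 from limma over 19774 genes. A gene was called at an adjusted p below 0.05, and 0.915% of all genes tested were called higher in BR, beside 1 of these 4.

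Os4CL3 had 5.57, 3.62 and 6.70 FPKM in BR control and 8.74, 9.48 and 8.98 FPKM under Fe. The Fe libraries lay close together, at 9.07 ± 0.378 FPKM (SD, n = 3), and the controls spread more widely, at 5.29 ± 1.56 (n = 3). Its log2 change was 0.71 (interval -0.08 to 1.497) and did not pass (adjusted p = 0.463 from limma).

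The CYP73A gene LOC4329329 had 3.08, 2.77 and 1.82 FPKM in BR control and 6.36, 5.28 and 4.10 FPKM under Fe. Its partner LOC4329324 had 1.49, 1.32 and 0.830 FPKM in BR control and 3.20, 3.22 and 2.19 FPKM under Fe. Neither gene had overlapping groups, and for both the lowest value of each treatment was in replicate 3. The means were 2.05-fold and 2.36-fold higher under Fe. The log2 changes of 0.81 (interval 0.15 to 1.48) and 0.80 (0.24 to 1.37) did not pass over all genes (adjusted p = 0.247 and 0.157 from limma). Libraries did not overlap in the upward direction for 4 of 4 genes, beside 8.29% of all genes tested. The 4 genes had been among those the study drew as changed in these same libraries, so their direction in BR is not independent evidence.

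The call of Os4CL2 in BR was fragile. Of the 6 fits that left out 1 BR library, 1 kept it (without control replicate 3, adjusted p = 0.0416 from limma), and the adjusted p reached 0.245 without control replicate 2. The rise itself ran from 0.74 to 1.10 over these fits. Green tissue markers (6 genes) summed to 2.13 to 5.16 FPKM in BR control, with 1 of the 6 at 0 in replicates 1 and 2, and to 6.04 to 48.8 FPKM under Fe with none at 0. Embryo and aleurone markers summed to 543 to 1633 FPKM in BR control and 335 to 764 under Fe, and endosperm markers to 63585 to 76784 and 70143 to 75393. None of the 5 tested green markers was called. Beside 1.06% of all genes, 1 of 6 embryo and aleurone markers was called lower. Their part in the values of the 4 genes was not tested.

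In RR at 15 DAF none of the 4 genes was called under Fe with limma, and Os4CL3 passed at an unadjusted p below 0.05. No gene of the whole table was called (0%), although 1300 higher and 314 lower genes had an unadjusted p below 0.05. Os4CL3 had 2.33 and 5.01 FPKM in control replicates 2 and 3 and 4.48, 42.9 and 18.9 FPKM in Fe replicates 1 to 3. Fe replicates 2 and 3 lay far above both controls, and Fe replicate 1 lay between them. The log2 change was 1.91 (SE 0.72, interval 0.40 to 3.43, unadjusted p = 0.0164 and adjusted p = 0.595 from limma), beside a median of 0.286 over all genes tested. Without Fe replicate 1 the change was 2.72 and passed (adjusted p = 0.00926 from limma). That fit called 2787 genes in the whole table. Endosperm markers summed to 11697 and 12273 FPKM in the Fe libraries it kept and to 28533 and 37257 in the controls. In the fit with all libraries 0 of 8 of them were higher under Fe (median log2 change -1.72), 5 of 8 were lower at an unadjusted p below 0.05 and none was called by limma. Their part in the Os4CL3 values was not tested.

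Os4CL2 stayed low in RR at 15 DAF, with 0.752 and 0 FPKM in control replicates 2 and 3 and 0.673, 1.82 and 0.545 FPKM under Fe. The groups overlapped, and the log2 change of 0.55 did not pass (interval -0.39 to 1.49, adjusted p = 0.670 from limma).

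The CYP73A genes had lower group means under Fe than in control in RR at 15 DAF, and neither passed. LOC4329329 had 13.2 and 1.46 FPKM in control replicates 2 and 3 and 2.52, 2.18 and 0.611 FPKM under Fe. LOC4329324 had 6.78 and 0.672 FPKM in the controls and 1.30, 1.69 and 0.621 FPKM under Fe. Control replicate 2 was the highest of all 17 libraries for both genes, while control replicate 3 lay within the Fe range. The log2 changes were -1.17 (interval -2.45 to 0.11) and -0.74 (-1.83 to 0.35), with adjusted p = 0.599 and 0.637 from limma. Without control replicate 2 they were 0.09 and 0.37, so the sign itself came from that library. For 0 of the 4 genes were Fe and control libraries of RR at 15 DAF without overlap, beside 13.7% of all genes without overlap upward and 3.05% downward. Endosperm markers in the controls summed to 28533 FPKM in replicate 2 and 37257 in replicate 3, and green markers to 10.2 and 4.21. Whether this difference between the controls bears on CYP73A was not tested.

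At 20 DAF the RR groups overlapped for all 4 genes, where 5.15% of all genes had no overlap upward and 3.75% downward, and none was called under Fe by limma at any setting that was run. Only 0.0253% of all genes were called there, and none of the 4 had an unadjusted p below 0.05. Os4CL3 had 5.18, 9.64 and 1.54 FPKM in control replicates 1 to 3 and 8.12, 3.16 and 8.67 FPKM under Fe. Control replicate 2 held the highest value and control replicate 3 the lowest. Its log2 change was 0.38, with an interval of -0.72 to 1.48. Os4CL2 was listed at 0, 0.533 and 0.0511 FPKM in control and 0, 0.401 and 0.129 FPKM under Fe, a log2 difference of -0.01 (interval -0.69 to 0.67). LOC4329329 had 0, 0.103 and 0.0249 FPKM in control and 0.0134, 0 and 0.623 under Fe, and LOC4329324 had 0, 0.0912 and 0.0258 FPKM in control and 0.0139, 0 and 0.169 under Fe. Fe replicate 3 was the highest library for both CYP73A genes. Their log2 differences were 0.18 (interval -0.75 to 1.11) and 0.03 (-0.76 to 0.82).

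The Fe responses of BR and RR were compared directly with an interaction term. The difference was largest for LOC4329329, at 1.98 (interval 0.54 to 3.43, unadjusted p = 0.00998), and for LOC4329324 it was 1.55 (0.32 to 2.78, unadjusted p = 0.0166). Neither passed over all genes (adjusted p = 0.414 and 0.426 from limma), and 0 of the 4 genes were called beside 0.00506% of all genes tested. Without RR control replicate 2 at 15 DAF the differences were 0.72 and 0.44. Without RR Fe replicate 1 at 15 DAF that of LOC4329329 was 2.20 and passed (adjusted p = 0.0450 from limma). Leaving out that library also raised the number of genes called over the whole table for Fe in RR at 15 DAF, as given above. For Os4CL3 and Os4CL2 the differences were -1.21 (interval -2.91 to 0.50) and 0.39 (-0.66 to 1.45). Between RR at 20 and at 15 DAF the Fe responses of the 4 genes differed by -1.53, -0.56, 1.35 and 0.77 in the order Os4CL3, Os4CL2, LOC4329329 and LOC4329324, with an adjusted p of 0.900 for each from limma. None of the 4 had an unadjusted p below 0.05 there, and 0.0152% of all genes were called.

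**Figure D2:**
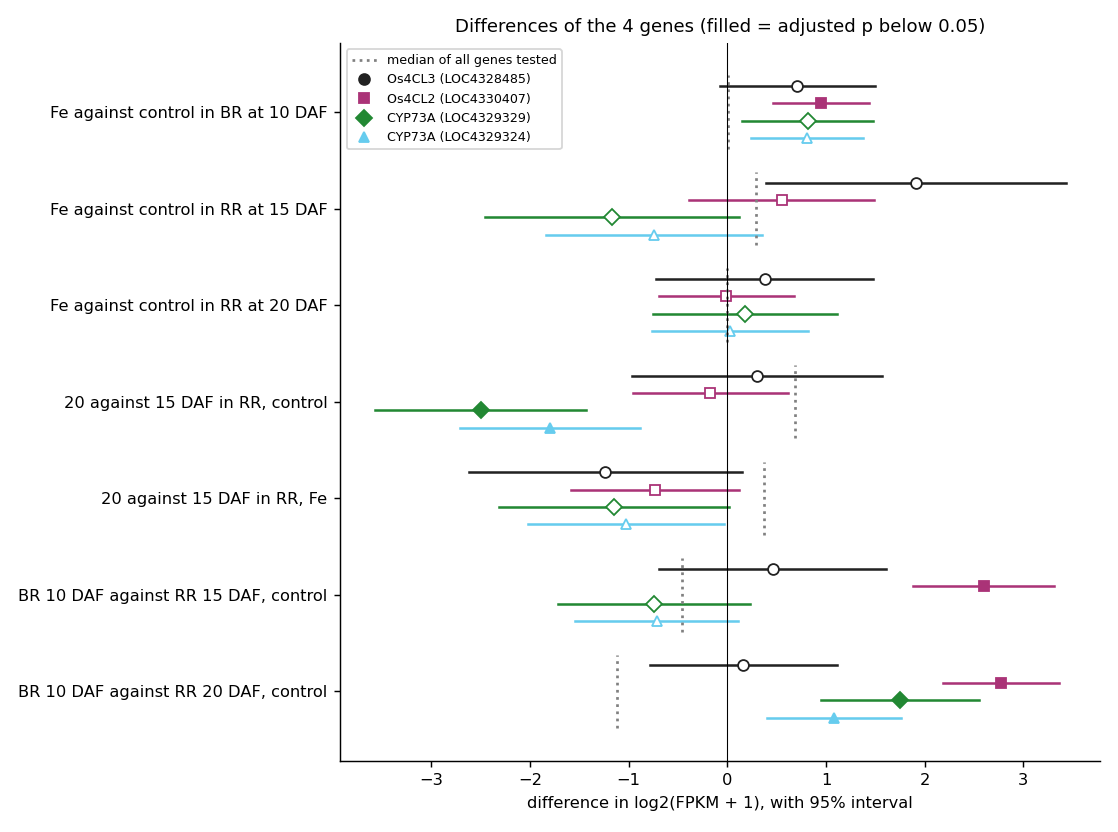
Differences of the 4 genes in log2(FPKM + 1) with 95% intervals for 7 comparisons. Filled symbols mark an adjusted p below 0.05 from limma, and the dotted line is the median of all genes tested. Os4CL2 is filled for Fe in BR and for BR against both RR controls, and the CYP73A genes are filled below 0 for 20 against 15 DAF in control and above 0 for BR against RR at 20 DAF.

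The clearest change of the CYP73A genes was with ripening of RR grains. Over both treatments LOC4329329 fell by 1.83 in log2 from 15 to 20 DAF (SE 0.38, adjusted p = 8.86e-04 from limma) and LOC4329324 fell by 1.41 (SE 0.32, adjusted p = 0.00177). 9.21% of all genes tested were called lower in this comparison and 43.5% higher, and the median of all genes was 0.533. With each library centred on its median the split was 21.5% lower and 19.4% higher. The log2 changes were then -2.36 and -1.94 (adjusted p = 2.65e-04 and 2.47e-04 from limma). The 5 libraries at 15 DAF had 0.611 to 13.2 FPKM of LOC4329329 with a median of 2.18, and the 6 libraries at 20 DAF had 0 to 0.623. For LOC4329324 they had 0.621 to 6.78 FPKM with a median of 1.30, against 0 to 0.169 FPKM.

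The libraries of 15 and 20 DAF did not overlap for LOC4329324, and overlapped for LOC4329329 only through Fe replicate 3 of either day. Over all genes tested, 3.84% had no overlap in the downward direction. Both CYP73A genes kept their call in all 11 fits that left out 1 RR library, with adjusted p of at most 0.0151 and 0.0268 from limma, both of them without RR control replicate 2 at 15 DAF. The ligases were not called in this comparison. Os4CL3 changed by -0.47 (interval -1.40 to 0.47, adjusted p = 0.387 from limma) and Os4CL2 by -0.45 (-1.03 to 0.12, adjusted p = 0.173). With centring on library medians Os4CL2 changed by -0.99 and passed (adjusted p = 0.00514), and Os4CL3 changed by -1.001 and did not (0.0769). Endosperm markers also fell, with 8 of 8 called lower and a median log2 change of -3.43. Their part in the CYP73A values was not tested.

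Within the control plants, LOC4329329 and LOC4329324 fell by 2.50 and 1.80 on the log2 scale from 15 to 20 DAF (adjusted p = 0.00125 and 0.0035 from limma), 2 of 4 genes beside 7.35% of all genes called lower. With centring 14.8% of all genes were called lower. Both calls were lost without control replicate 2 of 15 DAF, where the changes were -1.24 and -0.69 (adjusted p = 0.146 and 0.309 from limma). Neither CYP73A gene overlapped between the days in control, beside 11% of all genes without overlap downward. Within the Fe plants none of the 4 genes was called by limma and 1 had an unadjusted p below 0.05, beside 2.27% of all genes called lower. The log2 changes were -1.24 for Os4CL3 (interval -2.61 to 0.14), -0.73 for Os4CL2 (-1.59 to 0.12), -1.15 for LOC4329329 (-2.32 to 0.01) and -1.03 for LOC4329324 (-2.02 to -0.03), with adjusted p from 0.158 to 0.235. With centring, 6.56% of all genes were called lower, and so were Os4CL2 and LOC4329324 (adjusted p = 0.0430 for both). Without Fe replicate 1 of 15 DAF, Os4CL3 changed by -2.05 and passed (adjusted p = 0.0316). Os4CL2 and LOC4329324 did not overlap between the days under Fe, beside 9.05% of all genes. The change within control plants and the Fe response at 15 DAF used the same 2 control libraries.

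The largest contrast of Os4CL2 was between BR and RR grains. BR control exceeded RR control at 15 DAF by 2.60 on the log2 scale (SE 0.34, interval 1.89 to 3.31, adjusted p = 3.34e-05 from limma) and RR control at 20 DAF by 2.77 (SE 0.28, adjusted p = 1.11e-07). Under Fe, BR at 10 DAF exceeded RR at 15 DAF by 2.99 (SE 0.37, adjusted p = 1.24e-05). The lowest BR library of either treatment, at 5.58 FPKM, lay above the highest RR library, at 1.82. The median of all genes moved against this direction, at -0.46, -1.12 and -0.701 in the 3 comparisons. In RR control at 15 DAF, 1 of the 4 genes was lower than in BR at the threshold, beside 6.81% of all genes called higher in BR, 13.7% with centring and 12.3% without overlap. The call of Os4CL2 held in each fit that was run. Of the 8 endosperm markers, 1 was called higher in BR control than in RR control at 15 DAF and 8 than at 20 DAF, with none called lower. Of the 6 embryo and aleurone markers, 3 were called lower in BR than at 15 DAF and 4 than at 20 DAF. Dhn1 was called higher against both days. Over all genes tested, 27.2% and 64.6% were called lower in BR in these comparisons, or 9.75% and 28.4% with centring. The part of both marker sets in these differences was not tested.

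Os4CL3 did not follow its relative. BR control differed from RR control by 0.46 at 15 DAF (interval -0.69 to 1.61, adjusted p = 0.541 from limma) and by 0.16 at 20 DAF (-0.79 to 1.11, adjusted p = 0.751). Relative to the median of all genes, which was lower in BR, Os4CL3 was higher by 1.03 at 15 DAF (adjusted p = 0.201) and by 1.41 at 20 DAF (adjusted p = 0.0185), so its call at 20 DAF depended on the scaling. Under Fe, BR at 10 DAF and RR at 15 DAF differed by -0.74 (interval -2.01 to 0.52, adjusted p = 0.309), and by 0.12 with centring.

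For the CYP73A genes the contrast of the controls was called against RR at 20 DAF and not at 15 DAF. BR control was not called different from RR control at 15 DAF, at -0.75 for LOC4329329 (interval -1.72 to 0.22, adjusted p = 0.220 from limma) and -0.72 for LOC4329324 (-1.54 to 0.11, adjusted p = 0.167). With 1 library left out these differences ran from -2.01 to 0.52 and from -1.82 to 0.39. The sign held in 4 of these 5 fits for each gene, so the direction at 15 DAF was not settled. BR control was higher than RR control at 20 DAF by 1.75 (interval 0.95 to 2.56, adjusted p = 4.27e-04) and 1.08 (0.40 to 1.76, adjusted p = 0.0056). With Os4CL2 that made 3 of 4 genes called higher in BR, beside 14% of all genes, or 34.4% with centring, and the same 3 had no overlap, beside 14.2%. Under Fe, BR exceeded RR at 15 DAF by 1.24 (adjusted p = 0.0522) and 0.83 (adjusted p = 0.118), and neither passed. 1 of the 4 genes, Os4CL2, was called higher in that comparison beside 7.78% of all genes, or 23.5% with centring, under which the CYP73A genes passed too (adjusted p = 0.00278 and 0.0030). Os4CL2 and both CYP73A genes had no overlap under Fe, beside 9.94%. These comparisons share the BR libraries and do not count as separate evidence.

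The 2 ligases were next compared within libraries. Os4CL2 stood above Os4CL3 in 6 of 6 BR libraries, and Os4CL3 stood above Os4CL2 in 11 of 11 RR libraries. In BR the ratio of Os4CL3 to Os4CL2 was 0.795, 0.648 and 0.765 in control replicates 1 to 3 and 0.759, 0.483 and 0.680 under Fe. In RR it was 3.10 in control replicate 2 at 15 DAF and 6.66, 23.5 and 34.7 in the Fe replicates of that day, and ran from 7.88 to 67.0 at 20 DAF where Os4CL2 was above 0. The order of the ligases was thus opposite in the varieties in every library.

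5 rice genes carry the names Os4CL1 to Os4CL5, and their summed FPKM gives the share of each. Os4CL2 made up 32.4% ± 4.40 (SD, n = 3) of the sum in BR control, 43.2% ± 4.22 (n = 3) in BR Fe and at most 4.77% in any RR library. Os4CL3 made up 23.9% ± 4.83 in BR control and 27.3% ± 3.66 in BR Fe. In RR its share ran from 13.9% to 34.7% in the controls of both days and from 23.8% to 49.8% under Fe. Os4CL4 (LOC4341718) filled much of the rest, with 39.7% to 79.9% in RR against 34.5% ± 9.20 in BR control and 21.7% ± 1.58 in BR Fe. Os4CL5 (LOC4345717) took at most 18.3% in any library, and Os4CL1 (LOC4345054) reached at most 0.105 FPKM.

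The sum of the 5 genes was 21.8 ± 2.41 FPKM in BR control and 33.8 ± 6.35 in BR Fe (SD, n = 3 each). In RR at 15 DAF it was 15.8 and 16.3 FPKM in the controls and 17.02 to 119 FPKM under Fe. The highest sum was in Fe replicate 2, where Os4CL3 (42.9 FPKM), Os4CL4 (55.4 FPKM) and Os4CL5 (18.8 FPKM) were all at their highest and Os4CL2 stood at 1.82. In RR at 20 DAF the sums were 11.0 to 27.7 FPKM in control and 11.5 to 36.4 under Fe.

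The log2 ratio of each pair of relatives was tested between groups by exact two-sided permutation tests, 8 in all. For the ligases the Fe difference in this ratio, Os4CL3 minus Os4CL2, was -0.24 in BR (exact p = 0.3), 1.36 in RR at 15 DAF (exact p = 0.4) and 0.39 in RR at 20 DAF (exact p = 0.5). Between the days of RR it was -0.15 (exact permutation p = 0.814). The smallest p these designs allow is 0.1 for 3 against 3 libraries, 0.2 for 2 against 3 and 0.00433 for 5 against 6, so a single pair of groups could not pass. None of the 8 tests passed.

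The CYP73A genes moved together more closely than any other pair among the 4. Over 17 libraries their log2 levels correlated at 0.985 (Pearson), and at 0.965 after the group means were taken away, while the 2 ligases correlated at 0.190 and 0.310. These are descriptions over libraries that share groups. In BR, LOC4329329 was at 2.06, 2.10 and 2.19 times the FPKM of LOC4329324 in control replicates 1 to 3, and at 1.98, 1.64 and 1.88 times under Fe. A ratio near 2 also appeared in RR control at 15 DAF (1.94 and 2.16), and in Fe replicate 1 (1.95), but not in Fe replicates 2 and 3 (1.29 and 0.985).

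**Figure D3:**
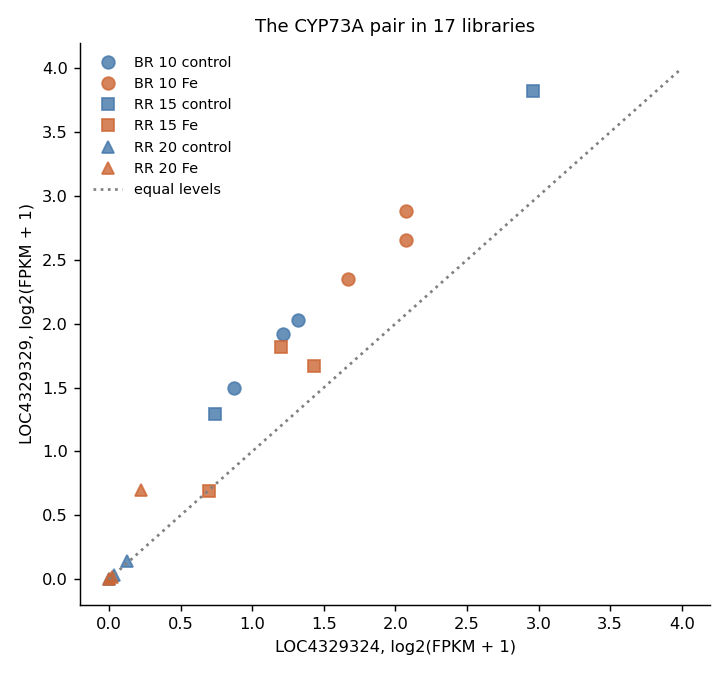
Level of LOC4329329 against that of LOC4329324 in 17 libraries, both as log2(FPKM + 1), with shapes for variety and DAF, colours for treatment and a dotted line of equal levels. LOC4329329 is the higher of the pair in 12 of 17 libraries, and the points run from near 0 in RR at 20 DAF to RR control replicate 2 at 15 DAF at the top.

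LOC4329329 was the higher of the pair in 12 of 17 libraries. The Fe difference in the log2 ratio of the pair was 0.01 in BR (exact permutation p = 1) and -0.43 in RR at 15 DAF (exact permutation p = 0.4). Between 15 and 20 DAF it changed by -0.37 (exact permutation p = 0.0563, adjusted p = 0.450 over the 8 tests), with levels near 0 at 20 DAF. In the reference annotation 5 other genes lie between the 2 on chromosome 2. How reads shared by near copies were counted is not given in the sources used here, so the values of the single genes are uncertain. Summed as 1 gene, the pair changed by 0.94 under Fe in BR (adjusted p = 0.206 from limma), by -1.11 under Fe in RR at 15 DAF (adjusted p = 0.606) and by -2.26 from 15 to 20 DAF in RR (adjusted p = 3.40e-04). The sum was called in the same comparisons as LOC4329329.

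Other genes of the pathway, listed by short name, were read in the same fits. Of the 7 remaining ligase and ligase-like genes 4 were tested, and none was called under Fe in any group. Their median log2 change was 0.232 in BR and 0.65 in RR at 15 DAF. From 15 to 20 DAF in RR, 4CLL1 (LOC4331650) rose by 1.304 and 4CLL4 (LOC4331515) by 0.81, while Os4CL5 fell by 1.25, with an adjusted p of 6.81e-04, 0.0299 and 0.0252 from limma. The count of 2 of 4 called higher stands beside 43.5% of all genes, or 19.4% with centring, and that of 1 called lower beside 9.21%, or 21.5%.

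Upstream of CYP73A, 1 of 2 PAL genes found by short name was called higher under Fe in BR, beside 0.915% of all genes. This gene, LOC4330034, had 53.2 ± 6.29 FPKM in control and 127 ± 12.1 under Fe (SD, n = 3 each). Its rise of 1.24 on the log2 scale passed with an adjusted p = 0.0137 from limma. The list below that was chosen on these same libraries holds further PAL genes, so 1 of 2 does not describe the whole family. LOC4330034 is also on that list, so its call is no independent evidence. The same gene rose by 0.87 from 15 to 20 DAF in RR (adjusted p = 0.0228 from limma). The median of all genes rose by 0.533 there, and 43.5% were called higher, or 19.4% with centring. The CYP73A genes fell in that comparison.

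Downstream, 3 of 4 flavonoid branch genes were tested, and all 3 were higher under Fe in BR (median 1.04). Beside 0.915% of all genes called higher there, 1 of the 3 passed. This was the anthocyanidin synthase gene ANS2 (LOC4341576), with 1.41 ± 1.01 FPKM in BR control and 5.26 ± 1.23 under Fe (SD, n = 3 each, adjusted p = 0.00127 from limma) and at most 0.0140 FPKM in RR. The chalcone synthase gene CHS (LOC4350636) had 165 ± 60.3 FPKM in BR control and 5.49 ± 1.68 (n = 2) in RR control at 15 DAF, a log2 difference of 4.63 (adjusted p = 3.81e-06). From 15 to 20 DAF in RR it fell by 1.49 in log2 (adjusted p = 0.00535). Like Os4CL2, both genes were called higher in BR control than in RR control at 15 DAF.

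In the lignin branch 7 of 16 genes were tested. CAD3 (LOC4348690), a cinnamyl alcohol dehydrogenase gene, was the single call in BR under Fe (log2 change 1.24, adjusted p = 0.0176 from limma), and the median over the 7 was 0.0948. From 15 to 20 DAF in RR, CAD1 (LOC4348242) rose by 1.61 and HCT1 (LOC4336306) by 0.57, while HCT2 (LOC4329959) fell by 1.70. The adjusted p ran from 3.75e-04 to 0.0311. Of the 7 genes tested, 2 were called higher, beside 43.5% of all genes, or 19.4% with centring. Another 2 were called lower, HCT2 among them, beside 9.21%, or 21.5% with centring. The rise of HCT1 was close to the shift of 0.533 at the middle of all genes tested. A further list of 9 pathway genes, given by ID and made up of PAL, HCT, CHI, F3H and ANS genes, was chosen earlier on these same libraries. It is no independent evidence. The PAL gene LOC4330034 and HCT2, given above, are also on it. Of the 9 genes on this list, 6 were called higher under Fe in BR, beside 0.915% of all genes. None was called in RR at 15 or 20 DAF, where 0% and 0.0253% of all genes were called.

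The genes whose levels were most like those of each member were found by the Pearson correlation of log2(FPKM + 1) over the 17 libraries, among tested genes with a short name. For Os4CL3 these were PAL06 (0.843), OsUGE-3 (0.804), OsHAK1 (0.775), Os4CL5 (0.748) and CBF3 (0.744). The first is another PAL gene, and its correlation was 0.776 after the group means were taken away. PAL06 was low, and in RR Fe at 15 DAF it ran from 0.35 to its maximum of 2.85 FPKM. Os4CL3 ran from 4.48 to 42.9 FPKM in that group. How far the correlation rests on that group was not tested. For Os4CL2 they were OsGER1 (0.973), SNL6 (0.971), OsYAB5 (0.967), OsERG1 (0.965) and the chalcone synthase gene OsCHS1 (0.964). These values mostly follow the step between BR and RR. Within groups OsERG1 kept 0.144 and OsCHS1 0.654. For LOC4329329 they were, after its partner, OsAPY1 (0.914), OsPL10a (0.887), OsCASPL5A1 (0.887), RA5 (0.881) and OsFKII (0.879), and OsAPY1, an apyrase gene, also led the list of LOC4329324 with 0.906. The points share libraries and groups, so these are descriptions.

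**Figure D4:**
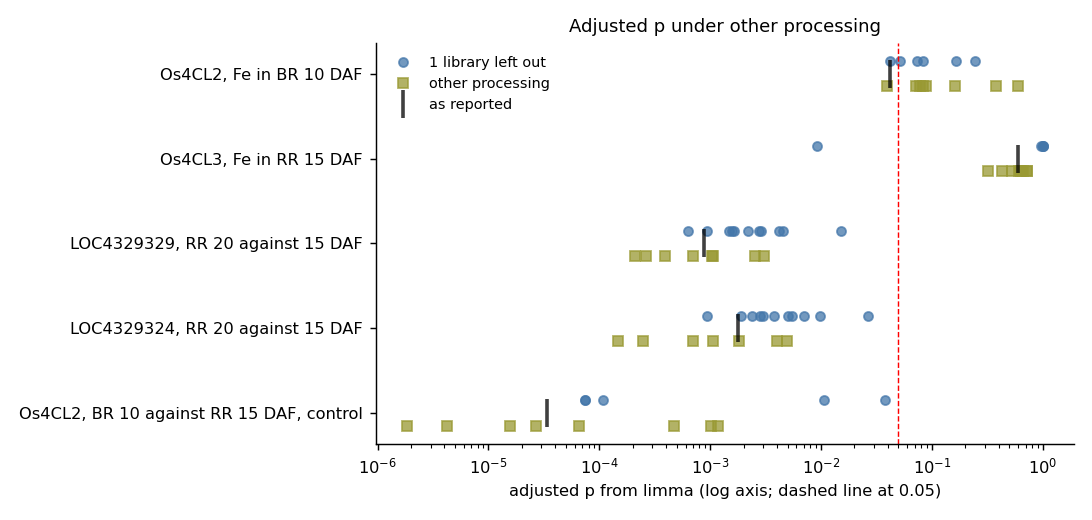
Adjusted p from limma on a log axis for 5 results, with circles for fits that left out 1 library, squares for other processing and bars for the value as reported. Most points of Os4CL2 under Fe in BR lie to the right of the dashed line at 0.05, whereas the CYP73A falls between 15 and 20 DAF and the difference of Os4CL2 between BR and RR stay to its left.

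In the plot of adjusted p by setting, Os4CL2 under Fe in BR was above 0.05 in most settings, Os4CL3 under Fe in RR at 15 DAF was below it in 1, and the 3 remaining results were below it in every setting in which the gene was tested.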

How the data were processed

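Grain mRNA of 17 libraries in 6 groups was analysed. The deposited values are FPKM. To make them the authors ran HISAT2 against the rice build IRGSP-1.0, then StringTie. Their versions and how shared reads were counted are not given in the sources used here. FPKM hold no counts, and no step of single reads was found (at a tolerance of 0.001 log2 at most 17 of 4612 low genes shared a ratio), so depth is unknown and replicates alone set the precision. The BR sampling day comes from the study's methods. P-values measure the spread between replicates, which were sets of pails.

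The test was limma 3.58.1 (R 4.3.3) on log2(FPKM + 1), over the 19774 genes that reached an FPKM of 1 in 2 or more libraries. All libraries entered 1 model with 6 group means, arrayWeights by group and trended eBayes, and two-sided p-values were adjusted by Benjamini-Hochberg over all genes tested. 11 comparisons were made. Ratios were tested by exact permutation in scipy 1.17.1. DESeq2, the study's tool, was not run because it needs counts. The fit was tested on simulated data. All 4 genes passed the filter on low values.

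The 4 genes and all lists were chosen with earlier results of these data known. Named genes are the 4, the list genes called in a comparison (at most 4 per list by smallest p, given here for Fe in BR and for the days of RR, with CHS also for BR against RR), and the 5 best correlated genes with a short name. 1 further gene of the lignin list is not reported here. Lists of pigment regulators and further CYP73A genes matched no short name. Gene names come from the RefSeq annotation of assembly ASM3414082v1 (27491 of 28737 annotation IDs were found, 2896 with a short name). It differs from the authors' build, so no coordinates are given, and no sequence was used. Alternatives were no filter, a pseudocount of 0.1, a minimum FPKM of 5, equal variances in all groups, quantile normalization, centring of each library on its median, a block for the replicate number, an adjusted p below 0.01 with a fold change of 1.5, the compared libraries alone and each library left out. The sum of the CYP73A pair was added after seeing the data.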

Additional observations from a re-analysis of the deposited data

How the results depend on the processing

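Counts are of the 4 genes called. For Fe in BR the count went from 1 to 0 with no filter, a pseudocount of 0.1, a minimum FPKM of 5, no variance factor, quantile normalization, the replicate block, the stricter threshold and BR libraries alone, and was 0 to 1 with 1 library left out. The adjusted p of Os4CL2 from limma was 0.0726, 0.604, 0.0891, 0.383, 0.0775, 0.0832 and 0.163 in these, in the same order without the stricter threshold, and 0.0392 with centring. For Fe in RR at 15 DAF the count was 0, and 0 to 1 with 1 library left out. From 15 to 20 DAF it was 2 over both treatments, 3 with centring and 1 with the filter at FPKM of 5, which left LOC4329324 untested. In control it was 2, and 1 with that filter, 1 with the compared libraries alone and 0 to 2 with 1 library left out. Under Fe it was 0, and 1 with a pseudocount of 0.1, 2 with centring and 0 to 1 with 1 library left out. For BR against RR at 15 DAF it was 1 in control, and 1 to 3 with 1 library left out (3 without RR control replicate 3). Under Fe it was 1, and 2 with no variance factor, 3 with centring, 3 with quantile normalization, 2 with the compared libraries alone and 1 to 3 with 1 library left out (3 without RR Fe replicate 1). For BR control against RR control at 20 DAF it was 3, and 4 with centring or quantile normalization and 2 with the filter at FPKM of 5. For the Fe response of BR minus that of RR at 15 DAF it was 0, and 0 to 1 with 1 library left out. For 15 to 20 DAF in control, the compared libraries alone also left LOC4329324 untested. Apart from genes left untested, the causes of these moves were not tested. No called value changed sign.

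Replicate numbers did not pair the libraries: residuals of same-numbered control and Fe libraries correlated at -0.388 to 0.21. With the replicate block 227 genes were called for Fe in BR, beside 390 without it and 60 to 1514 over all settings. Where a fit left RR control at 15 DAF with 1 library, that library was given the variance factor of the Fe group of that day. Main limits are the unknown depth, 2 libraries in that control group, Fe replicate 1 of RR at 15 DAF, levels near 0 in RR at 20 DAF, and variety and day that cannot be told apart.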
